A study of Mus musculus with 6 samples.

Results

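The 10 genes described here encode the cytokines by which T cells, NK cells and innate lymphoid cells act on their neighbours in the mouse liver: Ifng, Tnf, Il4, Il10, Il17a, Il2, Il21, Csf2, Lta and Ltb. They were chosen by name, as genes of the deposited single-cell matrices, and all 10 of 10 were found among 33696 genes. Their counts were read in invariant natural killer T (iNKT) cells, other αβ T cells, γδ T cells, NK cells, type 1 innate lymphoid cells (ILC1) and myeloid cells, with B cells as a class that should lack most of them. The sorted cells were leukocytes of the liver from 3 groups of mice: wild type mice on a 60% high fat diet (WT HFD), wild type mice on that diet with 0.25% hyodeoxycholic acid, a bile acid (WT HFD+HDCA), and Jα18-/- mice on the diet with hyodeoxycholic acid (iNKT KO HFD+HDCA). Feeding lasted 12 weeks in all 3 groups, so every library came from mice on the high fat diet, and the normal diet was not analysed here. The knockout library differs from WT HFD in both genotype and diet and was therefore compared with WT HFD+HDCA only. Each group had 1 RNA library and 1 library of αβ T cell receptor contigs from 10000 sorted cells. The labels give neither the age nor the number of mice behind a library. With 1 library per group no difference has a replicate check, and every interval below covers counting error only.

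Jα18 is the joining segment of the invariant receptor of iNKT cells, so mice without it lack these cells. iNKT cells recognise lipids on CD1d, hold cytokine transcripts before they are stimulated and can release interferon gamma and interleukin 4 within hours. Interferon gamma, TNF and GM-CSF arm macrophages and monocytes, interleukin 4 and interleukin 10 shape alternative and regulatory responses, interleukin 17A recruits neutrophils, interleukin 2 and interleukin 21 feed lymphocytes, and the lymphotoxins build lymphoid tissue. A transcript in a resting cell is not secreted protein, and the libraries count RNA only.

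The libraries held 6479, 10228 and 7153 barcodes and 44332213, 70776925 and 46600746 unique molecular identifiers (UMIs, counted RNA molecules) for the high fat diet alone, the diet with hyodeoxycholic acid and the knockout, the order used for every set of 3 values below. After filters and removal of called doublets 6196, 9668 and 6797 cells remained, with medians of 5619.5, 5461 and 5124 UMIs. Between 67 and 93 barcodes were shared by each pair of libraries. Traj18, the segment removed in the knockout, had 172, 160 and 0 UMIs. A contig of TRAV11 or TRAV11D with TRAJ18 marked 331, 452 and 1 iNKT cells, and the 1 cell in the knockout library goes against its genotype and was left out. Other αβ T cells, with a TRA and a TRB contig, numbered 1836, 2610 and 1813. Marker-named clusters gave 20, 30 and 37 γδ T cells, 542, 929 and 601 NK cells, 140, 191 and 341 ILC1, 350, 796 and 413 myeloid cells and 1648, 2552 and 1773 B cells. The descriptions name a CD45+ sort in places and CD4+ lymphocytes in others, and B, NK and myeloid cells were present.

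The labels of the classes matched most of the defining genes that were read. Cd3e, a chain of the T cell receptor complex, had a UMI in 99.1% of iNKT cells and 98.8 to 99.1% of other αβ T cells over the libraries, against 1.29 to 1.62% of NK cells and 1.43 to 3.52% of ILC1. Zbtb16, which encodes the iNKT factor PLZF, was seen in 50.8 to 57.3% of iNKT cells and 2.23 to 4.19% of other αβ T cells. Ncr1, the receptor NKp46, was seen in 95.3 to 98.8% of NK cells and 97.7 to 99.3% of ILC1, and Eomes in 54.6 to 74.7% and 3.52 to 9.95%. The γδ cluster carried Trdc in 55.0 to 73.3% of its cells and Il23r, the interleukin 23 receptor, in 53.3 to 73.0%, so it holds the interleukin 17 type of γδ T cell and not all of them. Trac, the constant gene of the TCR α chain, had a UMI in 8.11 to 43.3% of these cells over the libraries. The part of the cells with Trac in the γδ ratios below was not tested. Clusters were made without the 10 cytokine genes. A cluster of 532 cells that carried ILC1 markers but αβ contigs was not counted as ILC1.

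**Figure D1:**
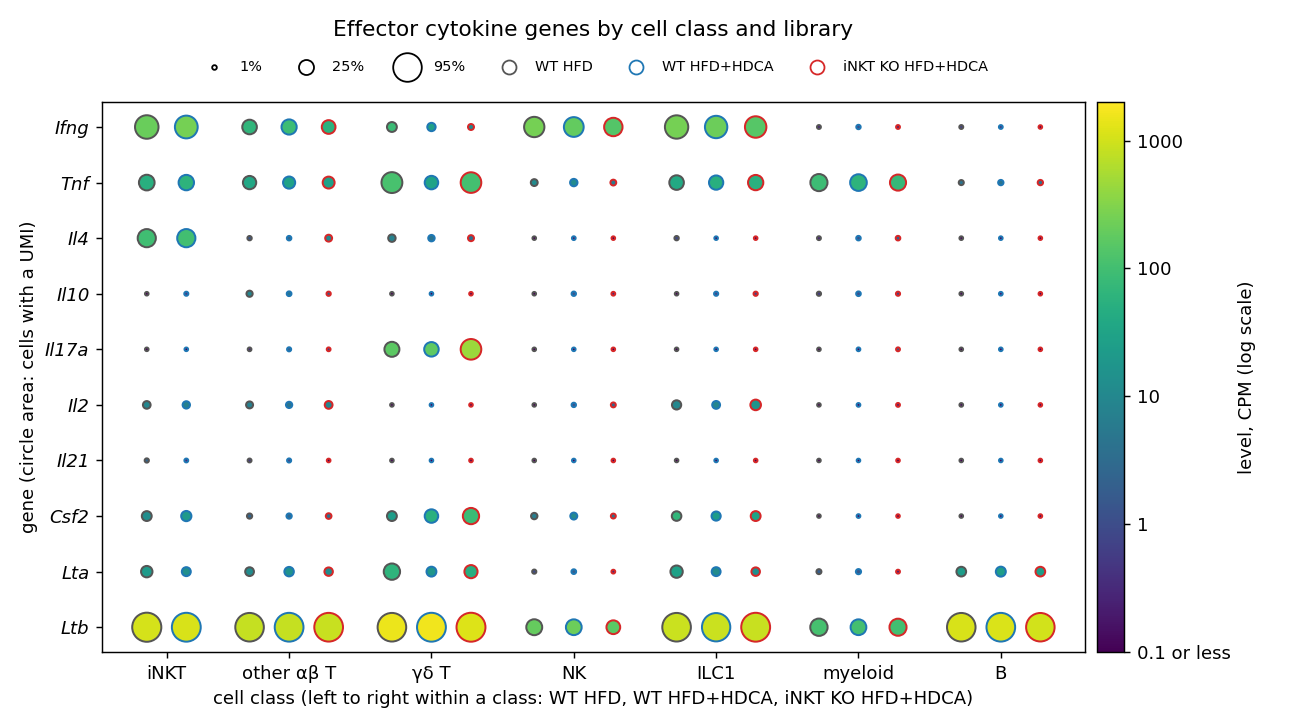
Levels of the 10 cytokine genes (rows) in 7 cell classes and 3 libraries (columns). Circle area is the share of cells with a UMI, fill is the level in CPM (counts per 1000000 UMIs, log scale) and the edge colour is the library; Il4 is filled mainly in iNKT cells, Il17a in γδ T cells and Ltb in every lymphocyte class.

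Interferon gamma RNA was spread over 4 lymphocyte classes. In iNKT cells Ifng had 211 and 248 counts per 1000000 UMIs of the class (CPM) in WT HFD and WT HFD+HDCA, with a UMI in 63.8% and 59.7% of cells. ILC1 had 254, 216 and 144 CPM and NK cells 255, 182 and 143 CPM. Other αβ T cells had 64.7, 89.2 and 55.0 CPM, with a UMI in 23.6, 25.7 and 20.6% of cells. The innate classes and iNKT cells stood above other αβ T cells in every library. Because the classes differ in depth (median 4856 to 5321 UMIs in NK cells, 7350 to 7865 in iNKT cells), each cell was also thinned to 2000 UMIs. Ifng was then seen in 27.8 and 28.3% of iNKT cells, 26.8, 22.7 and 22.2% of NK cells, 28.6, 30.9 and 24.8% of ILC1 and 10.3, 11.8 and 8.94% of other αβ T cells. At equal depth iNKT cells, NK cells and ILC1 thus lay close together in WT HFD, whereas in WT HFD+HDCA NK cells were below the other two. B cells, with a median of 4424 to 4565 UMIs, gave the background of free RNA at 0.303, 0.196 and 0% of cells, and myeloid cells had 1, 9 and 1 Ifng UMIs. Of all Ifng UMIs in a library, other αβ T cells held 31.3, 39.6 and 40.5%, NK cells 26.2, 21.6 and 23.2%, iNKT cells 20% and 19.5% and ILC1 9.72, 6.42 and 19.9%.

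Interleukin 4, the cytokine of type 2 help, had its highest level in iNKT cells. Il4 reached 94.4 CPM (95% Poisson interval 83.5 to 106) and 98.0 CPM (88.1 to 109) there, in 37.5 and 37.6% of cells. Other αβ T cells had 1.43, 2.53 and 9.90 CPM, in 0.708, 0.881 and 4.08% of cells. NK cells had 0, 1 and 0 Il4 UMIs, ILC1 1, 0 and 0, B cells 1, 1 and 0, and myeloid cells 1, 10 and 9. In the WT libraries iNKT cells held 79.9 and 70.6% of all Il4 UMIs and other αβ T cells 6.21 and 10.3%, whereas other αβ T cells held 72.6% in the knockout library. Within iNKT cells, those with a Cd4 UMI and none of Cd8a or Cd8b1 had 154 and 151 CPM of Il4, against 85.1 and 86.3 CPM in those with neither. Ifng ran the other way, at 135 and 203 CPM in the Cd4 group and 240 and 269 CPM in the group with neither. Ifng and Il4 both respond to the calcium-regulated factor NFAT. Their promoters are shown because Il4 was highest in iNKT cells, whereas Ifng was also high in NK cells and ILC1. Each run below is the 250 bases before a RefSeq start in GRCm38.p6, 5′ to 3′ on the gene's strand, with the NFAT core GGAAA on either strand in capitals.
Ifng, chr10:118440796-118441045 (+): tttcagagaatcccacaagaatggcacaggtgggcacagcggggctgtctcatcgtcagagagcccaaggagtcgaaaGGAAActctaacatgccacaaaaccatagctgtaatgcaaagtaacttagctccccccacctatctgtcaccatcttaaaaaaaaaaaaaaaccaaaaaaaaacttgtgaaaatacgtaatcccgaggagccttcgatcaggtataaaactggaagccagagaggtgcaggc
Il4, chr11:53618666-53618915 (-): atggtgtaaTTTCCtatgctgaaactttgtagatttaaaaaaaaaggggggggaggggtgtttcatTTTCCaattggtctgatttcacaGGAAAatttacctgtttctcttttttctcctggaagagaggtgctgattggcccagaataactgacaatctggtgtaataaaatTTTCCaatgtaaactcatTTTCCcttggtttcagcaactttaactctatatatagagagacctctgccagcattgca
The Ifng window held 1 match to this core and 1 to TATAAA, and the Il4 window 5 matches to the core. RefSeq lists a second Il4 start, whose window (chr11:53617339-53617588) held 0 matches to the core and is not shown. Of 32536 promoter windows of the same length, 55.7% held at least 1 GGAAA and 12.3% a TATAAA, so a match is a description and not a binding site.

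Interleukin 17A RNA had its highest level in the γδ cluster. Il17a had 21, 38 and 127 UMIs there, or 166, 172 and 450 CPM, in 25, 23.3 and 48.6% of cells. No Il17a UMI was found in iNKT cells, NK cells or ILC1 of any library, which allows at most 1.05 and 0.826 CPM in iNKT cells, 0.964, 0.547 and 0.946 CPM in NK cells and 2.59, 2.18 and 1.11 CPM in ILC1 (3 counts). The γδ cells held 65.6, 39.6 and 88.2% of the libraries' Il17a UMIs. In other αβ T cells Il17a had 5, 43 and 9 UMIs in 2, 12 and 3 cells, and in myeloid cells 0, 1 and 8 UMIs. In WT HFD 2 of the 5 came from a cell with a TRAV1 to TRAJ33 receptor, the chain known from mucosal-associated invariant T cells.

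TNF, lymphotoxins and GM-CSF had wider patterns. Tnf was at 89.6, 60.3 and 75.5 CPM in myeloid cells, 52.1 and 60.6 in iNKT cells, 38.8, 52.4 and 54.6 in ILC1, 37.0, 30.3 and 27.7 in other αβ T cells and 110, 31.6 and 103 in the few γδ cells. NK cells, with 11.6, 11.3 and 5.67 CPM, stood below all of these and above B cells at 4.25 to 4.53 CPM. The NK values rested on 36, 62 and 18 Tnf UMIs, and the last was close to the B cell level. Csf2, which encodes GM-CSF, had 12.9 and 20.9 CPM in iNKT cells, 69.0, 22.6 and 32.4 in ILC1, 23.7, 54.2 and 85.0 in γδ cells and 2.46, 2.73 and 3.67 in other αβ T cells, and B cells had 0, 0 and 1 UMI. Ltb, the membrane lymphotoxin chain, was seen in 98.5 and 96.7% of iNKT cells and 94.8, 96.1 and 95.7% of other αβ T cells, but in 28.4, 27.8 and 20.8% of NK cells. At 195, 214 and 156 CPM the NK level lay below the 885 to 914 CPM of ILC1 in every library, and myeloid cells, at 98.1 to 107 CPM, were lower still. Lta, the secreted chain, was present in B cells at 23.3, 24.6 and 24.4 CPM, and B cells held 32.6, 32.2 and 35.6% of its UMIs.

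Interleukin 2, interleukin 10 and interleukin 21 were rare. Il2 had 9.79 and 7.43 CPM in iNKT cells, 7.09, 4.72 and 9.56 CPM in other αβ T cells and 10.4, 9.46 and 17.3 CPM in ILC1, and 0, 7 and 8 UMIs in NK cells. Il10, which restrains macrophages, had 140, 96 and 23 UMIs in other αβ T cells, in 3.00, 1.11 and 0.607% of cells, and no more than 9 UMIs in any other of the 6 classes. Il21, a helper cytokine for B cells, had 7 and 1 UMIs in iNKT cells and 8, 19 and 1 in other αβ T cells, with 0 in γδ, NK, ILC1, myeloid and B cells. All 7 Il21 UMIs of iNKT cells in WT HFD came from a clone of 2 cells. Here a clone is a set of cells of a library whose productive TRA and TRB contigs have the same CDR3 nucleotide sequences. Maf, a factor of Il10 and Il21 expression, was seen in 74.7% of other αβ T cells with Il10 and 12.7% of those without, and in 83.3% of those with Il21 and 13.5% without.

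The genes that encode receptors for these cytokines were read from a list of 19. Ifngr1 was present at 1080, 1030 and 1206 CPM in NK cells. Il2rb, the shared receptor chain for interleukin 2 and interleukin 15, had 1755, 1585 and 1891 CPM in ILC1, 1303, 1215 and 1252 in NK cells and 1001 and 1061 in iNKT cells. Csf2ra, the GM-CSF receptor chain, had 316, 294 and 332 CPM in myeloid cells, and Ltbr, the lymphotoxin receptor, 61.2, 66.0 and 76.9 CPM there. Il4ra had 105, 111 and 113 CPM in B cells. Il2rb was higher in ILC1 than in NK cells, and in NK cells than in iNKT cells, in each library where both were read.

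Cells with several cytokine transcripts were more common among iNKT cells than among ILC1, NK cells and other αβ T cells in both WT libraries. Leaving out Ltb, which nearly all T cells carry, 48.6 and 46.0% of iNKT cells held at least 2 of the other 9 transcripts. The share was 45, 20 and 51.4% of γδ cells, 36.4, 26.7 and 28.2% of ILC1, 13.7, 11.1 and 12.2% of other αβ T cells and 4.98, 6.46 and 2.50% of NK cells. Myeloid cells had 1.38 to 1.70% and B cells 0.303 to 0.549%. With each cell thinned to 2000 UMIs the share was 9.97 and 12.3% of iNKT cells, 5.71, 6.92 and 5.14% of ILC1, 2.57, 2.15 and 3.61% of other αβ T cells and 0.749, 1.09 and 0.901% of NK cells, the same order. Among γδ cells it was then 5 of 19, 0 of 30 and 5 of 36 cells, too few to place them. Ifng and Il4 were found in the same iNKT cell in 81 and 95 cells. Il4 was seen in 38.4% of iNKT cells with Ifng and 35.8% of those without in WT HFD, and in 35.2 and 41.2% in WT HFD+HDCA, so neither transcript marked the other in either library. Tnf was seen in 31.3% of iNKT cells with Ifng and 20.8% of those without in WT HFD, and in 27.4 and 25.3% in WT HFD+HDCA. In ILC1 Tnf was about as frequent with Ifng as without, at 23.9 and 23.1%, 23.6 and 21%, and 26.1 and 26.1%. Among other αβ T cells Il2 was found in 10.6, 4.32 and 13.9% of cells with Ifng and 2.28, 2.68 and 3.48% of cells without. Tbx21, which encodes T-bet, was seen in 66.9% of other αβ T cells with Ifng and 25.4% without, over the 3 libraries.

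Clone size went with Ifng in other αβ T cells. Ifng was seen in 17.3, 20.6 and 14.1% of cells whose receptor occurred once, 44.3, 41.8 and 33.7% of cells in clones of 2 to 4, and 55.0, 52.3 and 50.9% of cells in clones of 5 or more. The order was the same in each library. Tnf had no such order in the WT libraries, at 19.7 and 15.3% of single cells and 16.8 and 13.9% of cells in clones of 5 or more. In the knockout library it was 13.4% of single cells and 25.4% of cells in the larger clones.

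A few cells or clones held much of the rarer transcripts, which sets how far a level of the class can be read. In WT HFD a single clone of 76 cells held 104 of 140 Il10 UMIs (74.3%), in 33 of its cells, and also 129 Ifng UMIs. In WT HFD+HDCA 1 cell held 31 of 96 Il10 UMIs, and it carried Cd4 and 24 Ifng UMIs. A clone of 4 cells held 25 of 43 Il17a UMIs in that library, 21 of them in 1 cell of the same cluster as the γδ cells. A cell with Cd8a held 318 of 1832 Ifng UMIs of other αβ T cells in WT HFD+HDCA (17.4%), where the next cell had 24. Single NK cells held 147 of 793 and 145 of 999 Ifng UMIs in the WT libraries, with 32 and 18 in the next. In ILC1 of WT HFD 1 cell held 55 of 80 Csf2 UMIs. The CDR3 nucleotide sequences of the receptors of these T cells are given to identify the clones, with the source library of each.
Il10 clone of 76 cells, first TRA chain (TRAV7-5 to TRAJ26, WT HFD): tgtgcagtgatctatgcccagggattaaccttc
Il10 clone of 76 cells, TRB chain (TRBV13-3 to TRBJ1-4, WT HFD): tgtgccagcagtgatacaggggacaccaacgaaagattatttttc
Il17a clone of 4 cells, TRA chain (TRAV12D-3 to TRAJ23, WT HFD+HDCA): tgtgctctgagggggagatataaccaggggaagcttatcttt
Ifng cell with 318 UMIs, TRA chain (TRAV6N-6 to TRAJ37, WT HFD+HDCA): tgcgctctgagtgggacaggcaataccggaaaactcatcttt

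**Figure D2:**
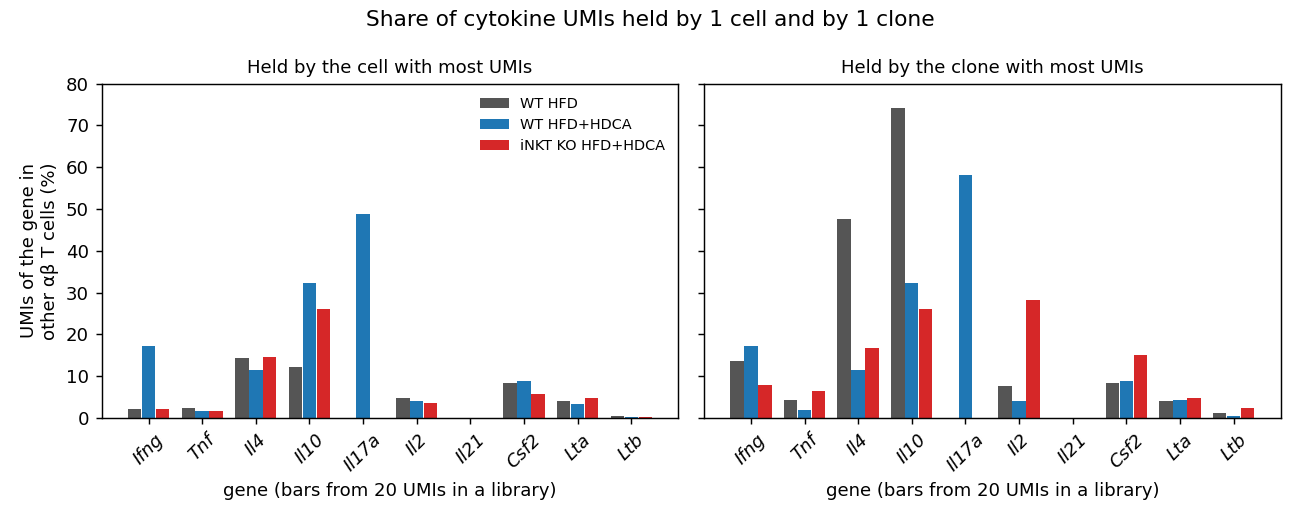
Share of a gene's UMIs in other αβ T cells (y axis, percent) held by the cell with most UMIs (left) and by the clone with most UMIs (right), for each gene (x axis) and library (bar colour). Bars are drawn from 20 UMIs in a library; the tallest is the Il10 clone of WT HFD at 74.3%, and for Ltb no cell or clone stands out.

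The question for the WT libraries was whether hyodeoxycholic acid in the diet went with other cytokine levels. A gene was called measured with at least 20 UMIs over both libraries and past the 2-fold rule at a ratio of at least 2 or at most 0.5. Of 60 pairs of cytokine and class 33 were measured, and 5 were past the rule, 1 higher and 4 lower in WT HFD+HDCA. In iNKT cells it was 0 of 7, where 3.19% of all measured genes were past it. In other αβ T cells it was 2 of 10 (3.25% of all genes), in γδ cells 1 of 3 (9.95%), in NK cells 0 of 4 (2.05%), in ILC1 2 of 6 (2.53%) and in myeloid cells 0 of 3 (6.35%). The γδ class has the fewest cells and the largest share of all genes past the rule. No p-value can be given for any of these counts.

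In iNKT cells the cytokines were close between the WT libraries. Set over WT HFD, the level with hyodeoxycholic acid was at a ratio of 1.17 for Ifng (95% counting interval 1.06 to 1.30), 1.16 for Tnf (0.940 to 1.44), 1.04 for Il4 (0.884 to 1.22) and 1.04 for Ltb (0.995 to 1.09). Il2 was at 0.759 (0.431 to 1.34). In WT HFD 19 of its 28 UMIs came from the 25 iNKT cells in clones of 2 or more, and among cells whose receptor occurred once Il2 ran the other way, at 3.33 and 6.64 CPM on 9 and 23 UMIs. Csf2 was higher in WT HFD+HDCA, at 1.62 (1.08 to 2.46), and Lta lower, at 0.643 (0.432 to 0.954), both inside the 2-fold rule. In that library 1 iNKT cell held 14 of 76 Csf2 UMIs and 80 of 900 Ifng UMIs. Within cluster 0, which held 166 and 255 of the iNKT cells and most of their Il4, the Il4 ratio was 0.816 (0.689 to 0.967). Other cytokine genes of iNKT cells that were past 2-fold were the chemokine genes Ccl3, at 2.46 on 8 and 25 UMIs, and Ccl4, at 4.88 on 25 and 155 UMIs, of 18 measured from a list of 35.

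Ifng differed in direction between classes under hyodeoxycholic acid. In other αβ T cells it went from 64.7 to 89.2 CPM, a ratio of 1.38 (1.28 to 1.49), and without the cell with the most Ifng UMIs in each library the ratio was 1.17. In cells with Cd8a or Cd8b1 and no Cd4 the ratio was 1.32 (1.19 to 1.47), and 0.978 (0.873 to 1.1) without those cells. In cells with Cd4 only it was 1.66 (1.38 to 2.01), on 188 and 291 UMIs. The mix of Cd4 clusters also differed. Of the 6196 and 9668 kept cells, a cluster with Igfbp4, Lef1 and Cd4 among its leading genes held 582 and 465. A cluster with Cd4 and Foxp3 among them held 285 and 471. The part of this mix in the Ifng and Il10 levels of the Cd4 group was not tested. In NK cells Ifng went from 255 to 182 CPM, a ratio of 0.715 (0.651 to 0.786), and in ILC1 from 254 to 216 CPM, a ratio of 0.852 (0.723 to 1), which was 0.531 (0.430 to 0.654) with ILC1 taken by markers per cell and 1.05 (0.768 to 1.45) after thinning. Of the other NK members, Tnf was at 0.978 (0.638 to 1.52), Csf2 at 1.62 (0.973 to 2.81) and Ltb at 1.1 (0.995 to 1.21), and each interval includes 1. With NK cells taken by markers per cell Csf2 turned to 0.336 (0.218 to 0.511) and Tnf was at 1.69 (0.861 to 3.56). NK cells of WT HFD+HDCA also had lower summed levels of 11 heat shock genes, 5890 against 6476 CPM, with 10 of 10 measured members lower and 1 past 2-fold. They had lower summed levels of 16 markers of other cells, 170 against 252 CPM, with 7 of 7 measured members lower. The direction of both lists varied over the other classes. In iNKT cells 8 of 10 heat shock genes and 6 of 6 markers of other cells were lower. In other αβ T cells it was 10 of 11 heat shock genes and 5 of 10 of the markers. In ILC1 5 of 9 heat shock genes were lower and 3 of 3 markers higher. In γδ cells 6 of 8 heat shock genes were lower and 4 of 4 markers higher. In myeloid cells 6 of 10 heat shock genes and 6 of 11 markers were higher. The part of either list in the Ifng differences was not tested.

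Il10 and Il17a were past the rule in other αβ T cells, and both rested on a few cells. Il10 had 140 and 96 UMIs, a ratio of 0.490 (0.374 to 0.639), and 1.8 (1.22 to 2.73) once the largest clone of each library was left out, in WT HFD the clone of 76 cells. That second ratio still includes the single cell with 31 of the 96 UMIs of WT HFD+HDCA, where the next cell had 8. In the group with Cd8a or Cd8b1 and no Cd4, which held 117 of the 140 Il10 UMIs of WT HFD, Il10 was at 15.2 and 0.329 CPM. In the Cd4 group it was at 3.47 and 18.1 CPM, and in the Foxp3 group, regulatory T cells, at 5.81 and 26.1 CPM. Il17a had 5 and 43 UMIs, a ratio of 6.14 (2.44 to 19.9). Of the members inside the rule, Il2 was at 0.666 (0.5 to 0.887), Tnf at 0.821 (0.730 to 0.922), Lta at 1.32 (1.1 to 1.6), Il4 at 1.77 (1.05 to 3.09), Il21 at 1.70 (0.709 to 4.48), Csf2 at 1.11 (0.718 to 1.74) and Ltb at 1.02 (0.997 to 1.04). Of 24 measured genes from the list of 35 other cytokines, 15 were lower and 9 higher, with 6 and 1 past 2-fold (median log2 ratio -0.114, 0.003 over all genes). The inflammatory chemokine genes Ccl3 and Ccl4 were among the lower ones, at 0.331 and 0.423. The clone of 76 cells held 989 of 1350 Ccl3 UMIs (73.3%) and 2679 of 3976 Ccl4 UMIs (67.4%) of WT HFD. In the remaining 1760 cells of that library Ccl3 was at 25.9 CPM and Ccl4 at 93.0 CPM, below the 30.5 and 115 CPM of WT HFD+HDCA. S100a8, a neutrophil transcript, was at 0.136, 72.2 and 242 CPM in other αβ T cells but in 2, 16 and 3 cells, and its part in these differences was not tested.

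Csf2 in ILC1 went from 69.0 to 22.6 CPM, a ratio of 0.327 (0.209 to 0.5), and was at 0.837 without the cell with the most Csf2 UMIs in each library and 0.734 with ILC1 taken by markers per cell. The share of ILC1 with a Csf2 UMI was 9.29 and 8.38%. Lta in ILC1 had 34 and 16 UMIs, a ratio of 0.397 (0.205 to 0.739), and Tnf was at 1.35 (0.917 to 2). Tnf in γδ cells had 14 and 7 UMIs in 20 and 30 cells, a ratio of 0.286 (0.0976 to 0.757), while Il17a was at 1.03 (0.592 to 1.86). With γδ cells taken by markers per cell (153 and 223 cells) the Tnf ratio was 0.810 and the Il17a ratio 1.60. With γδ cells taken by Cd3 and Trdc UMIs the Il17a ratio was 3.53 (1.53 to 9.47). In myeloid cells Tnf went from 89.6 to 60.3 CPM, a ratio of 0.674 (0.586 to 0.775). It was lower in the classical monocyte type cluster, led by Lyz2 and Fn1, at 0.531 (0.449 to 0.629), and at 1.52 (0.966 to 2.45) in the patrolling type cluster led by Ear2 and Ace. The neutrophil-like cluster, which is part of the class, held 14, 86 and 15 cells.

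**Figure D3:**
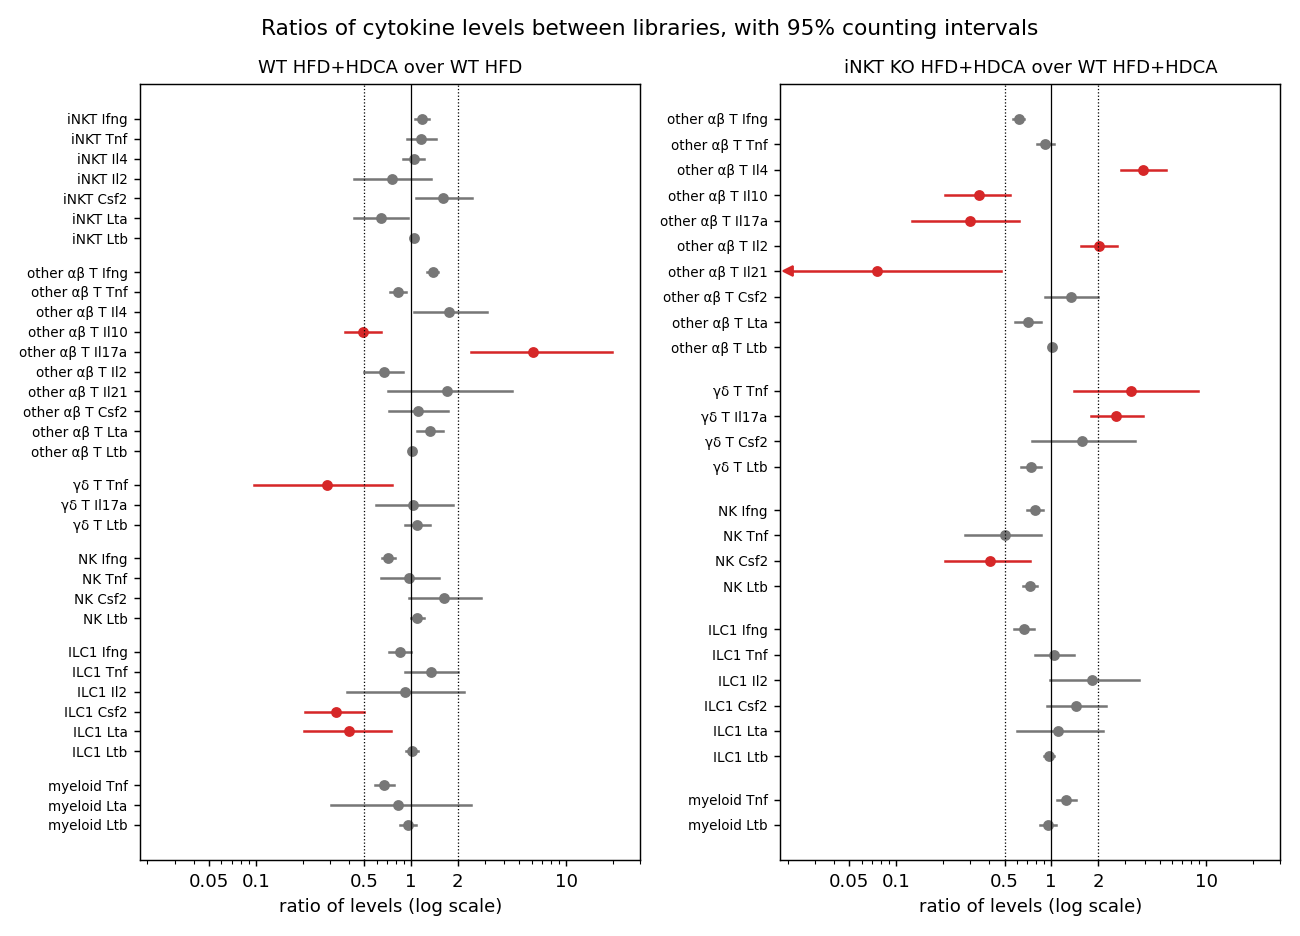
Ratios of cytokine levels between libraries for each measured pair of class and gene (y axis), on a log axis, for WT HFD+HDCA over WT HFD (left) and iNKT KO HFD+HDCA over WT HFD+HDCA (right). Points are ratios, lines 95% counting intervals, dotted lines the 2-fold rule and red points are past it; the arrow marks an interval that runs on to 0.00180, and the 2 panels share WT HFD+HDCA.

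The knockout library was compared with WT HFD+HDCA, the library that also serves in the first comparison, so the 2 sets of ratios are not independent. Of 50 pairs 26 were measured and 8 were past the 2-fold rule, 4 higher and 4 lower in the knockout library. It was 5 of 10 in other αβ T cells, where 4.16% of all measured genes were past the rule, 2 of 4 in γδ cells (8.28%), 1 of 4 in NK cells (3.36%), 0 of 6 in ILC1 (3.77%) and 0 of 2 in myeloid cells (6.75%). Since iNKT cells are absent there, no ratio exists for them.

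Il4 and Il2 were higher in other αβ T cells of the knockout library. Il4 had 52 and 143 UMIs, 2.53 and 9.90 CPM, a ratio of 3.91 (2.83 to 5.48). Il2 went from 4.72 to 9.56 CPM, a ratio of 2.02 (1.55 to 2.65). Of the knockout cells with Il4, 36.5% also had Il2 and 52.7% Ifng, against 4.31 and 19.3% of those without. Zbtb16 was seen in 38.2% of other αβ T cells with Il4 and 2.34% of those without, over the 3 libraries. Most of the Il4 cells lay in cluster 0, the cluster that holds most iNKT cells in the WT libraries. It held 42 other αβ T cells of the wild type library and 165 of the knockout, and within it the Il4 ratio was 0.720 (0.508 to 1.04) and the Il2 ratio 3.61 (1.60 to 10.1). Il4 was thus past the 2-fold rule over the class but not within this cluster. The Il2 call over the class was lost without the largest clone of each library (1.47), with at least 3 UMIs required per contig (1.61), after thinning (1.82) and with called doublets kept (1.95), while Il4 was at 2.6 with the stricter contigs and past the rule in each of its 9 alternatives.

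Many of these cells shared a receptor. The receptor was singled out after the values had been seen, so its cells are described and not tested. Chains that the deposited table names TRAV13N-3 with TRAJ50 (Vα10 with Jα50, known from CD1d-restricted T cells other than iNKT cells) were found in 90 of 1813 other αβ T cells of the knockout library (4.96%). In WT HFD and WT HFD+HDCA 8 and 7 cells had any TRAV13 gene with TRAJ50, a wider group that was not split by TRAV13 gene. They had 0 cells in cluster 0 and no Il4 UMI, whereas 86 of the 90 knockout cells lay in cluster 0. The 90 cells held 81 of the 143 Il4 UMIs (56.6%), 63 of 138 Il2 UMIs (45.7%), 18 of 53 Csf2 UMIs (34.0%), 141 of 794 Ifng UMIs (17.8%) and 52 of 400 Tnf UMIs (13%). Il4 was at 137 CPM in them and 4.48 CPM in the remaining other αβ T cells, Il2 at 107 and 5.42, Ifng at 239 and 47.2, Csf2 at 30.4 and 2.53 and Tnf at 88.0 and 25.1 CPM. Il4, Il2 and Ifng had a UMI in 41.1, 45.6 and 63.3% of the 90 cells, 24 held both Il4 and Ifng, and 19 both Il4 and Il2. Zbtb16 was seen in 26.7% of them and 3.02% of the rest.

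The 90 cells fell into 15 clones with 14 distinct pairs of these TRA and TRB CDR3, of which 7 clones were single cells, so more than 1 clone was involved. Il4 was found in 12 clones, Il2 in 9 and Ifng in 14. A TRBV13 gene was used by 14 of the 15, or 89 of 90 cells, counting those the deposited table gives as TRBV12-2 with TRBV13-2. All TRA CDR3 were 39 bases long, in 9 distinct sequences whose last 26 bases were identical. They are shown because the shared end and the varied junction are what the clones have in common and where they differ, with the shared 26 bases in capitals.
Clones 1 (39 cells) and 2 (15 cells): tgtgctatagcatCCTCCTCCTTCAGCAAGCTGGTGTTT
Clones 3 (9 cells) and 6 (4 cells): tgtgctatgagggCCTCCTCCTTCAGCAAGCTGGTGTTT
Clone 4 (5 cells): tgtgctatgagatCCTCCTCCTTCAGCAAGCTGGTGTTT
Clone 5 (5 cells): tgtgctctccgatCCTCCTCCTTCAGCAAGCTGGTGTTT
Clone 7 (4 cells): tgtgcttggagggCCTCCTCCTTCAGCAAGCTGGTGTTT
iNKT clone of 2 cells in WT HFD, TRAV11 to TRAJ18, for comparison: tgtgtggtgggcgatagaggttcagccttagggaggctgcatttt
The clones differed in their cytokines. Clones 1 and 2 had the same TRA CDR3 and different TRB CDR3, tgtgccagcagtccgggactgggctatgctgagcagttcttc in the first and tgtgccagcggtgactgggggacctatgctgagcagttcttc in the second. Clone 1 had 21 Il4, 39 Il2 and 63 Ifng UMIs in 39 cells, and clone 2 had 0 Il4, 3 Il2 and 16 Ifng UMIs in 15 cells. Clone 6 had 24 Il4 UMIs in 4 cells, 21 of them in 1 cell, and the iNKT clone shown for comparison had 15 Il4 UMIs in 2 cells.

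Within cluster 0 the receptor groups could be set side by side. Il4 was at 205 and 167 CPM in iNKT cells of the WT libraries, at 147 CPM (117 to 182) in the TRAV13N-3 to TRAJ50 cells of the knockout and at 57.3, 161 and 85.8 CPM in cells with other receptors. Il2 was at 21.3 and 10.6 CPM in iNKT cells, 114 CPM (87.7 to 146) in the TRAJ50 cells and 64.9, 21.9 and 45.5 CPM in the others. Ifng was at 197 and 235, 245, and 267, 186 and 179 CPM in the same order. Zbtb16 was seen in 65.1 and 60.8% of these iNKT cells and 25.6% of the TRAJ50 cells, and Klrb1c, the receptor NK1.1, in 51.2 and 60.0% against 10.5%. Genotype and library cannot be told apart here, since the TRAJ50 cells of cluster 0 come from 1 library.

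**Figure D4:**
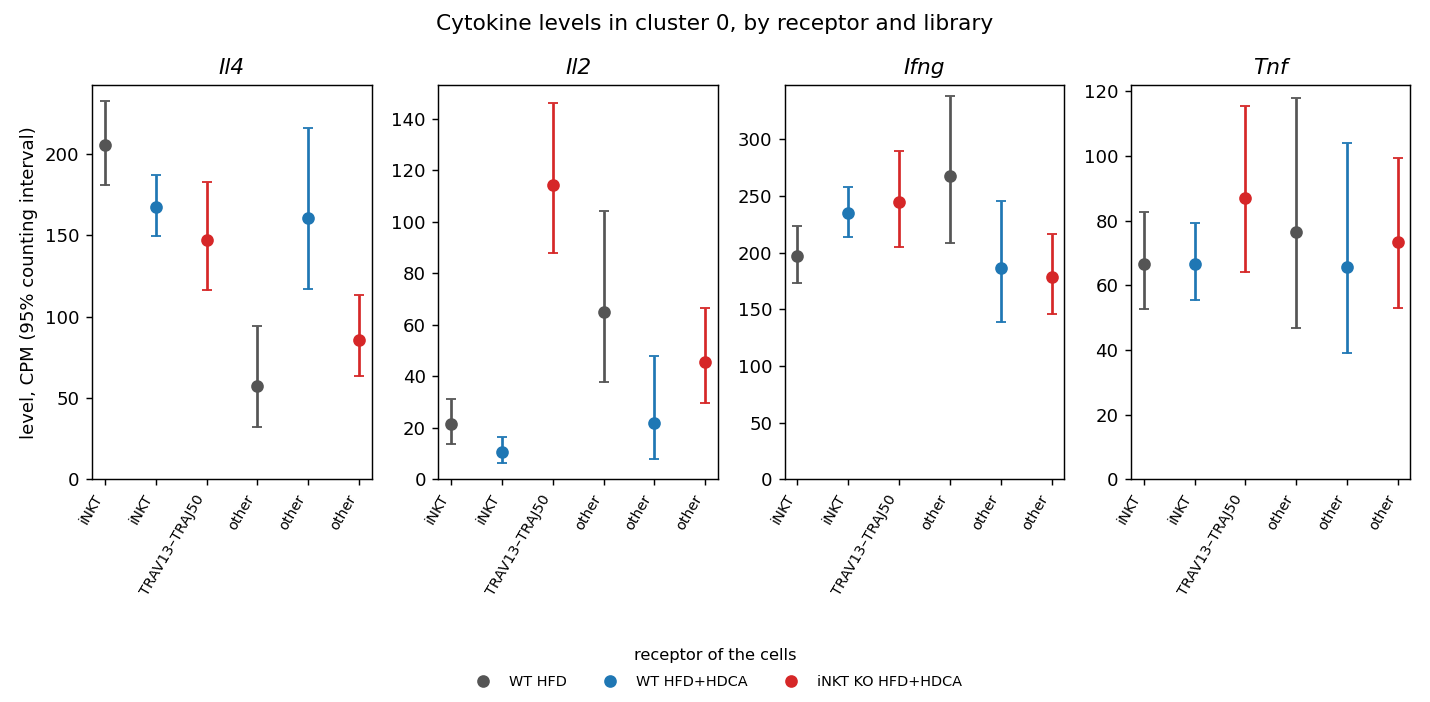
Levels of Il4, Il2, Ifng and Tnf (y axis, CPM, each panel on its own scale from 0) in the cells of cluster 0 by receptor (x axis) and library (colour). Points are levels and bars 95% Poisson intervals for counting error; TRAV13N-3 to TRAJ50 cells of the knockout library are at 147 CPM for Il4 and 114 CPM for Il2.

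Other members were lower in other αβ T cells of the knockout library. Ifng went from 89.2 to 55.0 CPM, a ratio of 0.617 (0.567 to 0.671). In the Cd8 group it went from 90.7 to 34.1 CPM, a ratio of 0.376 (0.329 to 0.428), and the ratio was 0.515 (0.448 to 0.590) without the cell with the most Ifng UMIs in each library. In the Cd4 group the ratio was 0.880 (0.726 to 1.06). The mix of clusters also differed between WT HFD+HDCA and the knockout, with 9668 and 6797 kept cells. A cluster with Dapl1, Cd8a and Lef1 among its leading genes held 564 and 513 cells. A cluster with Gzmk and Cd8a among them held 596 and 321, and one with Nsg2 and Ly6c2 800 and 429. The part of this mix in the ratios of this paragraph was not tested. Il10, with 96 and 23 UMIs, was at 0.341 (0.206 to 0.542), Il17a, with 43 and 9 UMIs, at 0.298 (0.128 to 0.619) and Il21, with 19 and 1 UMIs, at 0.0749 (0.00180 to 0.471). Lta was at 0.711 (0.586 to 0.861), Tnf at 0.914 (0.804 to 1.04), Csf2 at 1.35 (0.907 to 2), or 0.813 (0.317 to 1.95) after thinning, and Ltb at 1 (0.981 to 1.03). Of 15 lineage factors, the transcription factors that direct these cytokines, 13 were lower and 2 higher in the knockout, with a median log2 ratio of -0.260 against -0.009 over all genes, and none was past the rule.

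ILC1 of the knockout library had less Ifng RNA, and in NK cells the difference was not kept at equal depth. In ILC1 Ifng went from 216 to 144 CPM, a ratio of 0.667 (0.572 to 0.779). In NK cells it went from 182 to 143 CPM, a ratio of 0.787 (0.703 to 0.880). Thinned to 2000 UMIs the NK ratio was 0.978 (0.803 to 1.19), with a UMI in 22.7 and 22.2% of cells. Without the cell with the most Ifng UMIs in each library, which held 145 of 999 in WT HFD+HDCA, it was 0.905 (0.806 to 1.02). Tnf in NK cells had 62 and 18 UMIs, a ratio of 0.502 (0.279 to 0.859), Csf2 60 and 14 UMIs, a ratio of 0.403 (0.208 to 0.730), and Ltb was at 0.728 (0.654 to 0.810). With NK cells taken by markers per cell the Csf2 ratio was 1.86 (1.11 to 3.08), and without the cell with the most Csf2 UMIs in each library it was 0.261. Of 15 measured genes from the list of other cytokines 10 were higher and 5 lower in NK cells, with 1 past 2-fold higher and 0 lower (median log2 ratio 0.181, -0.015 over all genes). The chemokine genes Xcl1, at 0.555, and Ccl4, at 0.579, were among the 5. The NK class of the knockout drew 199 of its 601 cells from a cluster led by Klrg1 and S1pr5 that held 36 NK cells of WT HFD+HDCA. Within the larger NK cluster the ratios were 0.806 for Ifng (0.710 to 0.914), 0.363 for Tnf (0.158 to 0.736), 0.443 for Csf2 (0.210 to 0.852) and 0.691 for Ltb (0.610 to 0.781). Markers of other cells were higher in knockout NK cells, with 351 against 170 CPM summed over 16 genes, 5 of 6 measured members past 2-fold and 8 of the 16 at 0. Most of that sum was Cd74, at 205 against 62.4 CPM, and its part in the NK ratios was not tested. In ILC1, Eomes was at 0.261, 11 of 13 lineage factors were lower (median log2 ratio -0.396), and Il2 (1.83, 0.975 to 3.69), Csf2 (1.44, 0.946 to 2.24) and Ltb (0.968) were inside the rule. With ILC1 taken by markers per cell Csf2 turned to 0.407 (0.207 to 0.789).

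In γδ cells of the knockout library Il17a and Tnf were higher. Il17a went from 38 UMIs in 30 cells to 127 in 37 cells, a ratio of 2.62 (1.81 to 3.87), and the share of cells with a UMI from 23.3 to 48.6%. The Il17a ratio was 3.50 (2.51 to 4.94) with γδ cells taken by markers per cell and 6.88 (4.62 to 10.5) by Cd3 and Trdc UMIs. Tnf had 7 and 29 UMIs, a ratio of 3.25 (1.39 to 8.79), and was at 1.35 and 1.57 with these gates. Csf2 was at 1.57 (0.755 to 3.44) and Ltb at 0.743 (0.638 to 0.864). In this class 13 of 14 measured interferon gamma response genes were lower in the knockout, 4 of them past 2-fold (median log2 ratio -0.733, 0.046 over all genes). The 4 were Gbp2 (0.261), Gbp6, Igtp and Tap1, on 6 to 17 UMIs in the knockout.

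Interferon gamma activates myeloid cells, and 24 of its response genes were read there. All 24 of 24 had a ratio below 1 in the knockout library, with 3 past the 2-fold rule (Iigp1, Gbp6 and Tgtp1, on 4, 5 and 8 UMIs there) and a median log2 ratio of -0.534 against -0.038 over all measured genes. Psmb8, an immunoproteasome subunit, went from 578 to 455 CPM (0.788, 0.746 to 0.831), and Psmb9, another, from 240 to 166 CPM (0.691, 0.633 to 0.754). The transcription factor Irf8 went from 407 to 267 CPM (0.656, 0.612 to 0.702) and Irf1 from 175 to 127 CPM (0.728, 0.658 to 0.805). The list was lower for 16 of 17 measured genes in the patrolling type cluster (median -0.604), 21 of 22 in the classical type (-0.374) and 16 of 20 in the dendritic cells (-0.239). Without the neutrophil-like cluster it was 23 of 23 (-0.536). Lymphocyte RNA was also found in myeloid cells, with a Ccl5 UMI in 11.1, 14.8 and 11.6% of them, Nkg7 in 5.71, 11.8 and 6.05%, Cd3e in 1.71, 1.13 and 1.94% and Ncr1 in 0.571, 2.14 and 1.94%. In the 608 and 335 myeloid cells with no UMI of these 4 genes it was 23 of 23 (-0.457). Heat shock genes, a sign of stress in preparation, also differed in the knockout library. In myeloid cells Hspa1a went from 53.7 to 146 CPM and Hspa1b from 51.6 to 160 CPM, while 7 of the 10 measured heat shock genes were lower (median -0.268). Both were also past 2-fold higher in knockout other αβ T cells, NK cells and ILC1, at ratios of 2.64 and 3.57, 3.27 and 6.88, and 8.62 and 2.74. The ILC1 ratio of 8.62 rested on 2 and 34 Hspa1a UMIs. In B cells Hspa1a went from 9.97 to 47.0 CPM and Hspa1b from 26.65 to 101 CPM. The part of this in any knockout ratio was not tested. The interferon gamma response list was lower for 21 of 23 genes in other αβ T cells (-0.105) and 15 of 22 in ILC1 (-0.100), and higher for 12 of 19 in NK cells (0.016).

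In the hyodeoxycholic acid comparison the same list was higher on balance in myeloid cells and iNKT cells. In myeloid cells 16 of 24 genes were higher in WT HFD+HDCA (median 0.143, 0.031 over all genes), with Cxcl9, a chemokine gene of T cell recruitment, lower at 0.155 (56.2 and 8.70 CPM). By cluster, 13 of 18 were higher in the patrolling type (median 0.428), 13 of 23 in the classical type (0.085) and 14 of 19 in the dendritic cells (0.385). In the myeloid cells with no UMI of Ccl5, Nkg7, Cd3e and Ncr1 it was 13 of 23 (0.030). In iNKT cells 17 of 22 were higher (0.127). It was 14 of 23 in other αβ T cells (0.022) and 6 of 11 in γδ cells (0.063). In ILC1 11 of 22 were higher (0.009) and in NK cells 10 of 20 (-0.041). Tnf in myeloid cells went from 60.3 to 75.5 CPM in the knockout, at 1.25 (1.08 to 1.44), or 0.959 (0.680 to 1.34) after thinning. It was higher in the classical type cluster, at 1.5 (1.26 to 1.78), and lower in the patrolling type cluster, at 0.518 (0.330 to 0.798), the reverse of the order under hyodeoxycholic acid in each. Both comparisons share WT HFD+HDCA. Of 20 NF-kB and TNF response genes 18 were higher in knockout myeloid cells (median 0.140) with none past 2-fold. By cluster, 15 of 20 were higher in the classical type (0.131) and 11 of 20 in the dendritic cells (0.051). In the patrolling type only 6 of 20 were higher (-0.186). Of 18 measured receptors of the 10 cytokines 15 were higher in the class (0.235), Ifngr1 at 1.31 (384 and 505 CPM) and Tnfrsf1b at 1.45 among them.

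**Figure D5:**
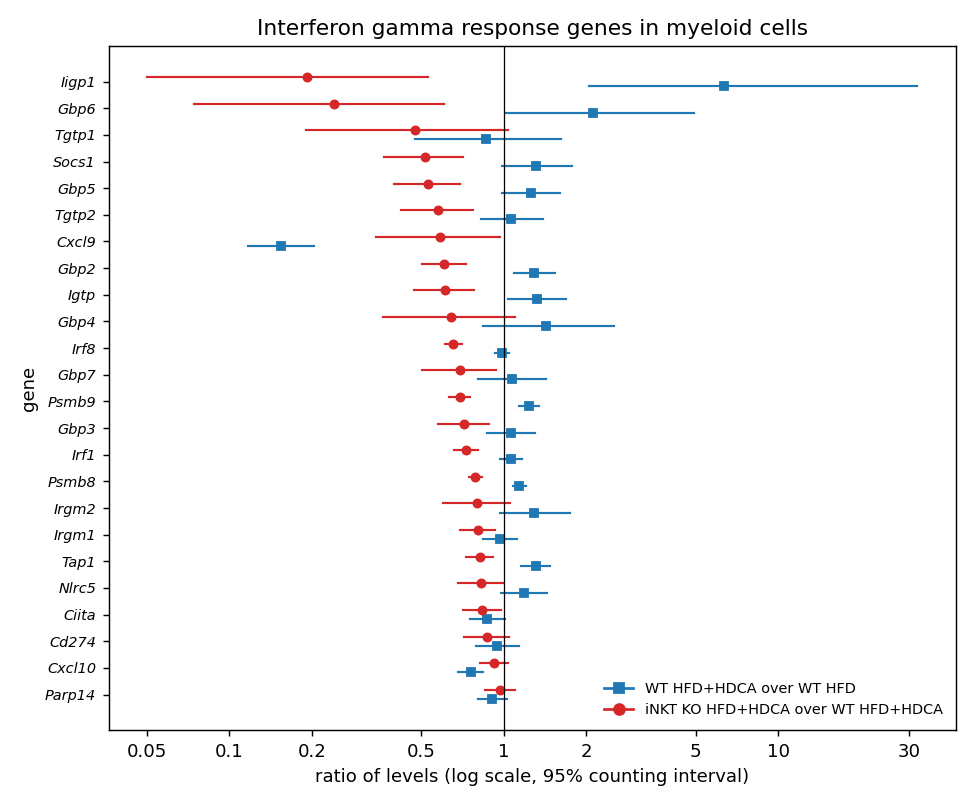
Ratios of 24 interferon gamma response genes (y axis) in myeloid cells on a log axis, for WT HFD+HDCA over WT HFD (squares) and iNKT KO HFD+HDCA over WT HFD+HDCA (circles), with 95% counting intervals. All 24 circles lie below 1, and the squares lie on both sides, 16 of them above 1.

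Genes with the most similar pattern were sought over 17 pairs of class and library, by Pearson's r on log2(CPM + 10), as a description with no test. The points share libraries and the classes differ in depth. For Ifng they were Ppm1j (0.969), Gimap4 (0.964) and Ctsw (0.960), for Tnf Rftn1 (0.977), for Il4 Pak6 (0.942), for Il10 Coch (0.911) and for Il2 Ccdc136 (0.931). For Il17a they were Abi3bp (0.996), Mmp25 (0.993) and Scart1 (0.987), for Csf2 Fam124b (0.911), for Lta Ccsap (0.947) and for Ltb Faah (0.976), Gbp6 (0.970) and Dtx1 (0.965). Il21 had too few UMIs for this. With a pseudocount of 50 CPM the first gene was Ly9 for Ifng, Zfp523 for Csf2 and Adck5 for Lta.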

How the data were processed

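The authors deposited 1 matrix of UMI counts per RNA library, made with Cell Ranger 8.0.1 per the file headers, and tables of assembled receptor contigs. The submitters' processing notes name both mm10 and GRCm39, so no gene coordinates were taken from the files. RNA came from 3 libraries and contigs from 3. Barcodes had to hold at least 200 genes and at most 10% mitochondrial UMIs, and those that Scrublet (scanpy 1.11.5) scored as doublets, 3.55 to 4.95% of barcodes, were removed. Cells were clustered (Leiden, resolution 1, 2000 variable genes, 30 components, 20 neighbours) without the 10 cytokine genes and named from fixed markers, at least 3 among the top 10 genes. A cluster with contigs in over 50% of its cells was given no innate name, a threshold set after seeing the data. Levels are UMIs of a gene per 1000000 UMIs of the class with exact Poisson intervals, shares have exact Clopper-Pearson intervals, and ratios have conditional exact binomial intervals, all at 95% and for counting error only. With 1 library per group no test or p-value was computed; the count model of replicated designs could not be fitted. The calculation of ratios was tested on simulated data. The 10 genes and the gene lists were chosen with earlier results of these data known. From a list, the text names up to 4 genes with the most UMIs and at least 50, genes past the 2-fold rule and, chosen after their values were seen, a few others shown in the figures. Some genes of the lists are not reported here and were left out of every count over a list. Promoter sequences come from RefSeq (GRCm38.p6), and 9 of the 10 genes had an entry. Alternatives were thinning, other cluster resolution, gates, filters, UMI minimums and leaving out cells or clones.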

Additional observations from a re-analysis of the deposited data

Results flagged for a closer look

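Several members differed in direction between classes under the same contrast, with intervals on either side of 1; the difference between classes was not tested. Ifng in WT HFD+HDCA over WT HFD was at 1.17 in iNKT cells and 1.38 in other αβ T cells but 0.715 in NK cells. Csf2 was at 1.62 in iNKT cells and 0.327 in ILC1 in that comparison. The ILC1 value rested on 1 cell with 55 of 80 Csf2 UMIs in WT HFD, and without the cell with the most Csf2 UMIs in each library it was 0.837 (0.461 to 1.52), an interval that includes 1. Lta was at 0.643 in iNKT cells, 1.32 in other αβ T cells and 0.397 in ILC1. In the knockout over WT HFD+HDCA, Il17a was at 0.298 in other αβ T cells and 2.62 in γδ cells, and Tnf at 3.25 in γδ cells, 0.502 in NK cells and 1.25 in myeloid cells. Some of these values also rest on few cells. In WT HFD+HDCA 1 iNKT cell held 80 of 900 Ifng and 14 of 76 Csf2 UMIs. Single other αβ T cells held 318 of 1832 Ifng and 21 of 43 Il17a UMIs there. As given above, γδ Tnf was inside the 2-fold rule with other gates, and the myeloid Tnf interval included 1 after thinning.

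Called doublets, which no comparison uses, also held cytokine RNA. The number of the 10 genes above 3 UMIs in them was 8, 8 and 7 in WT HFD, WT HFD+HDCA and the knockout. Ifng had a UMI in 31.7% of the WT HFD doublets and 18.7% of the kept cells of that library, at medians of 11681.5 and 5619.5 UMIs.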

How the results depend on the processing

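No paired analysis was possible because each group has 1 library. The count of members past 2-fold under hyodeoxycholic acid, 5 in the report, was 3 after thinning to 2000 UMIs, 3 without the cell with the most UMIs of each gene, 10 with at least 10 UMIs required and 3 with at least 50. In the knockout comparison the count, 8 in the report, was 4 after thinning, where fewer UMIs remain. No other setting moved either count by over 1.5 times. Of the ratios recomputed, 470 moved by less than their interval, 42 moved by more and 2 reversed. These totals pool settings of unlike reach. With classes taken by markers per cell only 13 ratios moved by less, while 16 moved by more and 1 reversed. With called doublets kept 59 moved by less. Il10 in other αβ T cells under hyodeoxycholic acid was 1.8 without the largest clone, which held most of its UMIs in WT HFD. That value still includes 1 cell with 31 of the 96 Il10 UMIs of WT HFD+HDCA. Csf2 in knockout NK cells was 1.86 (1.11 to 3.08) with NK cells taken by markers per cell, and the cause of this was not tested. With those gates Ifng in ILC1 under hyodeoxycholic acid was 0.531 and Csf2 in NK cells 0.336, against 1.62 in the report. Ifng in knockout NK cells was 0.905 without the top cell and 0.978 after thinning, Ifng in other αβ T cells of the knockout 0.729 without the top cell, Il4 there 2.6 with contigs of at least 3 UMIs, and Il2 there 1.47 without the largest clone. Il17a in the knockout γδ comparison was 6.88 with γδ cells taken by Cd3 and Trdc UMIs. Of the shares, 171 stayed within their interval and 51 moved, mostly on thinning. Rare members (Il21, Il17a, Il10) and the 20 to 37 γδ cells per library are limited by depth.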
